A study of Arabidopsis thaliana with 3 samples.

Results

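The crwn1 crwn2 double mutant of Arabidopsis thaliana was compared with the wild type Col-0 across all genes of the authors' deposited table for this genotype. The table held 1935 genes, out of 2666 genes listed in either deposited table of the series. Of the 1935 genes, 1427 had no entry in the deposited table for the other mutant, pwo1, and 508 were in both tables. Genes were grouped by words in the gene descriptions that the authors deposited. RNA came from whole seedlings 14 days old, with seeds stratified for 2 days and plants grown upright on MS plates in long days. The series' design text states 3 biological replicates per genotype and paired-end sequencing. The groups were the crwn1 crwn2 double mutant, the pwo1 mutant and Col-0, and both mutant comparisons share the Col-0 plants. The sources used here do not name the alleles.

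CRWN proteins are long coiled-coil proteins that line the inner face of the plant nuclear envelope, where they take the place that lamins have in animals. Loss of CRWN1 and CRWN2 is known to give small, round nuclei and dwarfed plants. Higher-order crwn mutants are known to accumulate salicylic acid, the hormone that drives the response to pathogens that feed on living tissue.

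The deposited values were the log2 fold change of crwn1 crwn2 over Col-0 and a p-value, both by edgeR and by Cuffdiff. A gene was counted as higher or lower when the authors listed it, and the largest p-values listed were 0.00585 by edgeR and 0.0074 by Cuffdiff. GEO records 1 sample per genotype, and values for each library, their spread and their depth are unknown here. The absence of a gene from the table does not show that it was unchanged. Levels of tissue markers were not given, so the tissue label was not checked. In whole seedlings, fewer cells of a type and less RNA per cell cannot be told apart.

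Both mutated genes were lower in crwn1 crwn2. In the authors' deposited table, CRWN1 (AT1G67230, named LINC1 in the reference) had a log2 fold change of -3.03 by edgeR, with p = 1.9e-89, and -3.09 by Cuffdiff. CRWN2 (AT1G13220, LINC2) had -2.42 by edgeR, with p = 3.05e-39, and -1.57 by Cuffdiff per the authors' deposited table. The sign of the table follows from these genes. That of the pwo1 table rests on its header alone.

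More genes were higher than lower in crwn1 crwn2, and the excess was larger among genes not listed for pwo1. Of the 1935 genes, 1093 were higher and 842 lower, with a median log2 fold change of 0.53 per the authors' deposited table. The listed protein-coding genes were 6.91% of the 27562 in the reference, 3.92% higher and 2.99% lower. These reference genes stand in for the genes the authors tested, whose number the sources used here do not give. Of the 1427 genes absent from the pwo1 table, 893 were higher and 534 lower, which is 62.6% higher. Their median log2 fold change was 0.60 per the authors' deposited table. They made up 5.09% of reference protein-coding genes, 3.2% higher and 1.89% lower. The 508 genes also listed for pwo1 leaned the other way, with 200 higher and 308 lower and a median log2 fold change of -0.59 per the authors' deposited table. At least 2-fold changes were seen for 552 higher and 230 lower genes, of which the protein-coding ones were 1.97% and 0.791% of the reference. With the same threshold, 426 of the genes absent from the pwo1 table were higher and 130 lower, and the protein-coding ones among them made up 1.51% and 0.443% of the reference. Whether a gene listed only for crwn1 crwn2 differs between the mutants was not tested.

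**Figure D1:**
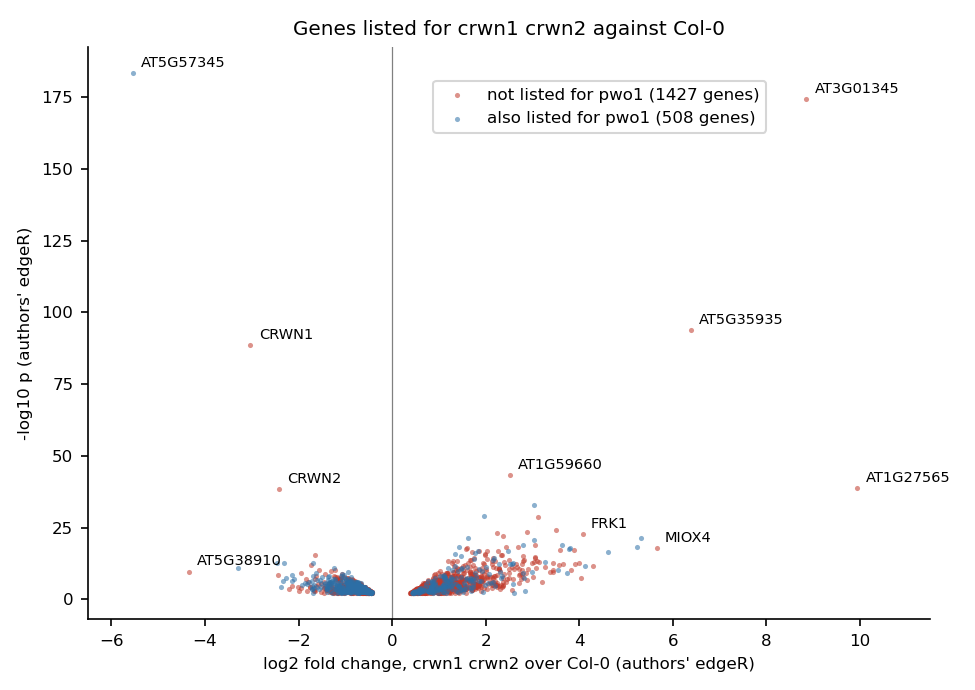
Each point is a gene of the authors' deposited table, placed by its log2 fold change of crwn1 crwn2 over Col-0 (horizontal) and the negative log10 of its p-value (vertical), both by edgeR, in red where the gene is not listed for pwo1 and in blue where it is. CRWN1 at -3.03 and CRWN2 at -2.42 stand on the left, and AT3G01345 at 8.85 and AT1G27565 at 9.94 on the right.

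The strongest changes among genes absent from the pwo1 table carried varied descriptions. AT1G27565, of unknown function, was at 9.94 by edgeR per the authors' deposited table, and its fold change by Cuffdiff was infinite, so its size is uncertain. AT3G01345, described as a putative glycosyl hydrolase, was at 8.85 with p = 4.94e-175 by edgeR per the authors' deposited table. The copia-like retrotransposon gene AT5G35935 was at 6.38, and MIOX4, an oxygenase of myo-inositol, at 5.65 per the authors' deposited table. AT1G59660, described as a nucleoporin autopeptidase of the nuclear pore, had the smallest p among the other higher genes per the authors' deposited table, with a log2 fold change of 2.52 and p = 3.48e-44 by edgeR. AT1G43910, a nucleoside triphosphatase gene, was at 3.13, the Nudix hydrolase gene NUDT6 at 3.50 and the nitrate transporter gene NRT1.8 at 2.88 per the authors' deposited table. Among the 10 highest were also the defence marker gene PR1 at 4.03, AIG1, induced by bacterial avirulence, at 3.91, the C1 domain gene AT2G17740 at 3.88 and AT1G62420 of unknown function at 4.29 per the authors' deposited table. On the lower side, the cupin gene AT5G38910 was at -4.34 and VSP2, a jasmonate-induced storage protein gene, at -2.21 per the authors' deposited table. AT5G57345, of unknown function, was lower at -5.54 in crwn1 crwn2 and also listed for pwo1 at -0.80 per the authors' deposited tables. AT5G57345, AT1G43910 and NRT1.8 overlap other annotated genes, and the sources used here do not say whether counting used the strand.

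The 33 description groups held 1010 of the 1935 genes, some in more than 1 group, and 925 genes matched none. Of these groups, 31 had at least 5 listed members, and 19 of those 31 had more higher than lower members. By median, receptor-like proteins, UDP-glycosyltransferases, NAC factors, glutathione transferases, WRKY factors and NLR or TIR receptors stood at the higher end. Transposons and pseudogenes, chromatin, auxin response and B-box genes stood at the lower end. A description can place a gene in a group because it mentions a word, so the chaperone genes SDF2 and ERDJ3B fell among the receptor kinases and the transporter gene ABCC3 among the photosynthesis genes.

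**Figure D2:**
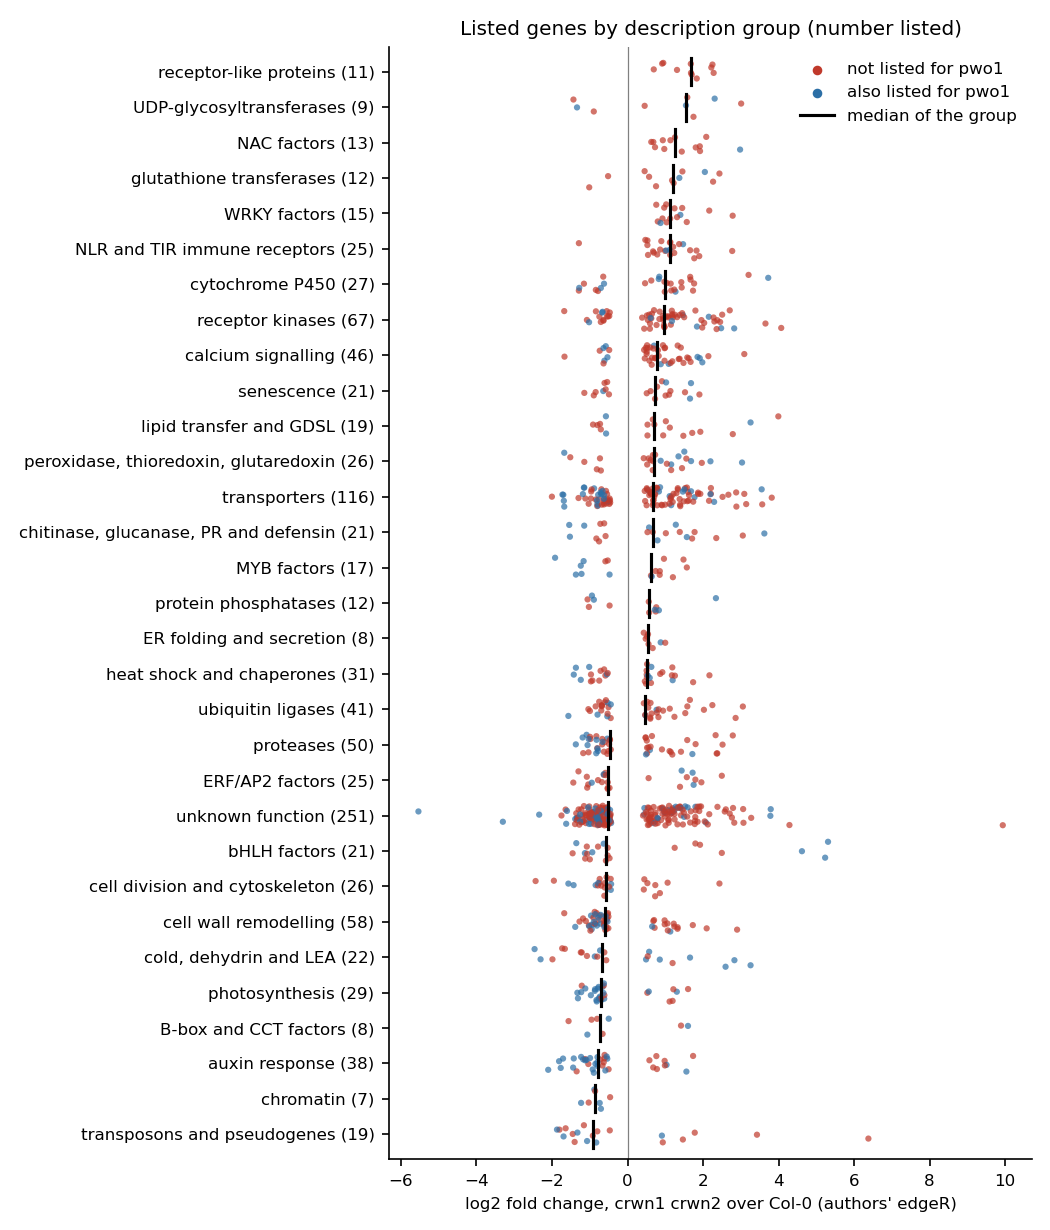
Each point is a listed gene, placed by its log2 fold change of crwn1 crwn2 over Col-0 by edgeR per the authors' deposited table, in 1 row per description group with at least 5 listed members, sorted by the group's median (black bar), with red for genes not listed for pwo1 and blue for genes also listed for pwo1. The receptor-like proteins at the top have a median of 1.68 and the transposons and pseudogenes at the bottom one of -0.92.

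Receptors at the cell surface were mostly higher in crwn1 crwn2. Receptor kinases, which sense microbial and plant-derived ligands outside the cell, counted 52 higher and 15 lower, with a median log2 fold change of 0.97 per the authors' deposited table, and 57 of these 67 genes were absent from the pwo1 table. At least 2-fold changes were seen for 32 higher and 3 lower members. The largest was FRK1, a kinase gene induced by bacterial flagellin, at 4.07 per the authors' deposited table. FRK1 overlaps another annotated gene. The wall-associated kinase gene WAK1 was at 1.84 in crwn1 crwn2 and at -0.83 in pwo1 per the authors' deposited tables. Among the lower members, the proline-rich extensin-like kinase gene PERK4 was at -1.68 and the stem cell receptor gene CLV1 at -0.55 per the authors' deposited table, both named after their values were seen. The receptor-like proteins, which have outer repeats but no kinase, numbered 11, all listed as higher and none listed for pwo1. They had a median log2 fold change of 1.68 per the authors' deposited table. RLP38 was at 2.28, RLP34 at 1.68, and RLP23, the receptor for a peptide of microbial necrosis-inducing proteins, at 2.22 per the authors' deposited table. RLP23 and RLP34 overlap other annotated genes, as do 6 of these 11 genes.

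The cysteine-rich receptor-like kinases, a family picked after its values were seen, had 15 of 40 reference members listed. That is 37.5%, against 6.91% of all protein-coding genes. All 15 were higher and absent from the pwo1 table. In the authors' deposited table their log2 fold changes ran between 0.84 for CRK11 and 3.65 for CRK39, with a median of 2.28. CRK13 was at 2.71, CRK7 at 2.51 and CRK23 at 2.45 per the authors' deposited table. CRK27 was at 0.93 by edgeR and 3.88 by Cuffdiff per the authors' deposited table, so its size depends on the tool. The other 25 members were not listed. Close relatives lie beside each other in this family, and the sources used here do not say how reads common to them were counted.

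In the list of cell surface immunity genes, 9 of 27 members were higher, none lower and 18 not listed, with all 9 absent from the pwo1 table. Among all protein-coding genes of the reference, 6.91% were listed and 3.92% were higher. Beside FRK1 and RLP23, the authors' deposited table gave 1.45 for EFR, the receptor of bacterial elongation factor Tu, and 1.0 for SOBIR1, the adaptor kinase of receptor-like proteins (0.67 by Cuffdiff). Downstream of the receptors, the cytoplasmic kinase gene BIK1 was at 0.88 and the co-receptor gene BKK1 (SERK4) at 0.70 per the authors' deposited table. BIR1, which restrains receptor complexes, was at 0.51, and the mitogen-activated protein kinase kinase genes MKK4 and MKK5 at 0.51 and 0.50 per the authors' deposited table. The kinase gene MPK11 was at 2.03 per the authors' deposited table and was named after its value was seen. The median of the 9 genes, all higher, was 0.88 per the authors' deposited table. Regardless of sign, the median size over all listed genes was 0.87, so these genes changed by a usual amount. FRK1, RLP23, EFR, SOBIR1, MKK4 and MKK5 overlap other annotated genes.

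Intracellular immune receptors followed the same direction. Of 25 genes described as NLR or TIR proteins, which detect pathogen effectors inside the cell, 24 were higher and 1 lower. Their median log2 fold change was 1.12 per the authors' deposited table. By RefSeq product name 25 of 182 such genes were listed (13.7%, against 6.91% of all protein-coding genes), 23 higher and 2 lower. AT1G57630, a TIR domain gene, was at 2.77, and the lower gene AT4G19050 at -1.29 per the authors' deposited table. In the list of the EDS1 node and its helper receptors, 5 of 14 members were higher and 9 were not listed. The share of higher genes among all protein-coding genes was 3.92%. The authors' deposited table gave 1.52 for PAD4, 1.29 for EDS1 and 0.78 for SAG101, whose products form complexes that pass on TIR receptor signals. The helper receptor genes ADR1 and ADR1-L1 were at 1.12 and 0.54 per the authors' deposited table, and ADR1 was also listed for pwo1 at 0.66. ADR1-L1 overlaps another annotated gene.

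N-hydroxypipecolic acid is the mobile signal of systemic acquired resistance. Of its 6 list members, 4 were listed, all higher, against 6.91% of all protein-coding genes listed. Their median log2 fold change was 2.23 per the authors' deposited table. SARD1, a transcription factor gene for salicylic acid synthesis, was at 2.37 with p = 7.37e-23 by edgeR per the authors' deposited table. ALD1, the aminotransferase that begins pipecolic acid synthesis, was at 2.34 in crwn1 crwn2 and at -1.33 in pwo1 per the authors' deposited tables. FMO1, the monooxygenase that makes N-hydroxypipecolic acid, was at 2.12 in crwn1 crwn2 and at -1.88 in pwo1 per the authors' deposited tables. The same glycosyltransferase, UGT76B1, conjugates this acid and salicylic acid, and its gene was at 1.52 per the authors' deposited table. NIMIN1 and NIMIN-2, which bind the salicylic acid receptor NPR1, were at 2.78 and 2.02, and EDS5, the chloroplast exporter in salicylic acid synthesis, at 1.74 per the authors' deposited table. NIMIN1 and NIMIN-2 were named after their values were seen. SARD1 and EDS5 overlap other annotated genes. The promoter of SARD1 is shown because it is the highest gene of this list and holds 4 matches to the W-box core TTGAC, the letters WRKY factors bind. It is the 250 bases before the annotated gene start in the RefSeq annotation of build TAIR10.1, chr1:27749249-27749498 on the minus strand, with each TTGAC or its reverse complement in capitals. The same window of ALD1, FMO1 and UGT76B1 held 0 matches.
SARD1: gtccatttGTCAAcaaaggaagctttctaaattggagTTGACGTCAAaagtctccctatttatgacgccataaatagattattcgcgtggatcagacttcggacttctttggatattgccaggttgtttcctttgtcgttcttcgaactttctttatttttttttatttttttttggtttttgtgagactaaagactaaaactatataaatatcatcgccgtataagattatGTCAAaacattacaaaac

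Camalexin is the main antimicrobial indole compound of Arabidopsis. Of 9 genes of camalexin and indole metabolism, 4 were higher and 1 lower, all absent from the pwo1 table. Among all protein-coding genes, 3.92% were higher and 2.99% lower. In the authors' deposited table GSTF6, a glutathione transferase, was at 2.43, and the cytochrome P450 genes CYP71A13 and PAD3, for an early and the final step of camalexin synthesis, at 1.66 and 1.42. The transporter gene ABCG40 (PDR12) was at 1.57, and 2.02 by Cuffdiff, per the authors' deposited table. The lower gene was CYP79B3, whose product makes indole-3-acetaldoxime at the head of the pathway, at -0.64 per the authors' deposited table. CYP71A13 overlaps another annotated gene.

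Transcription factor families split. All 15 genes with WRKY in the description were higher, and 13 of them were absent from the pwo1 table. Their median log2 fold change was 1.13 per the authors' deposited table. By RefSeq product name the family had 17 of 72 members listed (23.6%, against 6.91% of all protein-coding genes), again all higher. The 2 sets differ, since the lowest of the 15 genes, at 0.76, is not in the family by product name. WRKY58 was at 2.78, WRKY46 at 2.16, WRKY60 at 2.14 and WRKY18 at 2.17 per the authors' deposited table. WRKY60 and WRKY18 belong to the family by product name only, not to the 15 genes by description, and were named after their values were seen. WRKY54, a negative regulator of senescence, was at 1.40 in crwn1 crwn2 and at -1.17 in pwo1 per the authors' deposited tables. The other WRKY genes listed for pwo1, WRKY18 and WRKY27, were higher there, at 1.04 and 0.97 per the authors' deposited tables. All 13 NAC genes by description were higher, 12 of them absent from the pwo1 table, with a median log2 fold change of 1.26 per the authors' deposited table. NAC044 was at 2.98, NAC061 at 2.09, NAC016 at 1.92 and NAC047 at 1.91 per the authors' deposited table. In pwo1, NAC044 was also higher, at 1.84 per the authors' deposited tables. The ERF/AP2 group had 9 higher and 16 lower members, but with p under 0.001 in both tools it had 8 higher and 6 lower. In the authors' deposited table the ethylene response gene Rap2.6L was at 1.96, and the jasmonate-induced ORA47 at -1.44. The bHLH group had 7 higher and 14 lower members, and with p under 0.001 in both tools 7 each way. MYB genes were 9 higher and 8 lower, and of the 8 B-box and CCT genes 6 were lower, including BBX17 at -1.56 per the authors' deposited table.

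Protein folding in the endoplasmic reticulum formed a group of small rises. Of 28 genes on the folding and secretion list, 12 were higher, none lower and 16 not listed, and all 12 were absent from the pwo1 table. Their median log2 fold change was 0.52 per the authors' deposited table. Among all protein-coding genes, 6.91% were listed and 3.92% were higher. BIP3, the stress-induced member of the luminal HSP70 chaperones, stood above the rest at 2.17, with BIP2 at 0.71 and BIP1 at 0.49 per the authors' deposited table. The co-chaperone genes ERDJ3A and ERDJ3B were at 1.26 and 0.44, and SDF2, a partner of ERDJ3B, at 0.39 per the authors' deposited table. The protein disulfide isomerase genes PDIL1-2, PDIL1-3 and PDIL1-1 were at 0.67, 0.56 and 0.43 per the authors' deposited table. The lectin chaperone genes CRT3 and CNX1 were at 0.54 and 0.48, and SHD, the HSP90 of this compartment, at 0.44 per the authors' deposited table. Only BIP3 and ERDJ3A changed by at least 2-fold, so this list rests on small differences. ERDJ3A overlaps another annotated gene. The vacuolar sorting receptor genes VSR6 and VSR7 were at 1.58 and 1.19 per the authors' deposited table. On a separate list of heat shock factor genes and DREB2A, 0 of 11 members were listed, where 6.91% of all protein-coding genes were. So short a list cannot be told apart from that share. DREB1A (CBF3) is on the cold list below.

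**Figure D3:**
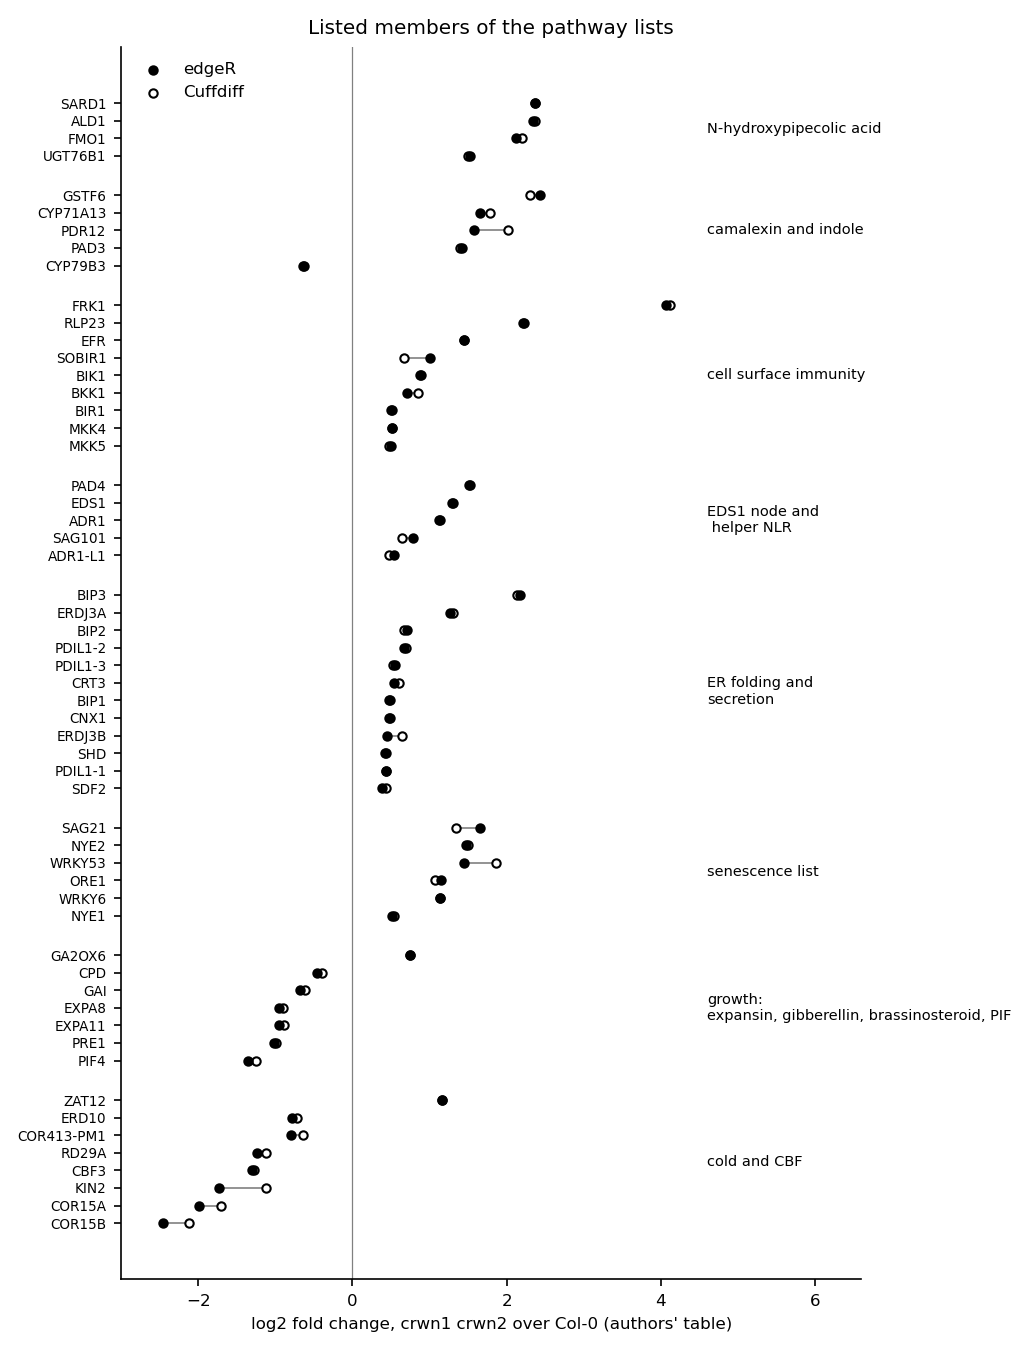
Each row is a listed member of a pathway list, placed by its log2 fold change of crwn1 crwn2 over Col-0 per the authors' deposited table, with filled points for edgeR and open points for Cuffdiff joined by a line. Rows for the immune, camalexin, folding and senescence lists lie right of 0, and those for the growth and cold lists lie left of it, except for CYP79B3 at -0.64, GA2OX6 at 0.75 and ZAT12 at 1.16.

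Enzymes and transporters that handle small molecules had more higher than lower members, as did all listed genes, of which 56.5% were higher. Cytochrome P450 genes were 19 higher and 8 lower, glutathione transferases 10 and 2, and UDP-glycosyltransferases 6 and 3. The median log2 fold changes of these groups were 0.99, 1.2 and 1.55 per the authors' deposited table. Peroxidases, thioredoxins and glutaredoxins were 20 higher and 6 lower. Of 116 transporter genes 72 were higher and 44 lower, while the 31 of them also listed for pwo1 were 12 higher and 19 lower. NRT1.8, given above, was joined by GPT2, the glucose 6-phosphate translocator of plastids, at 2.67 per the authors' deposited table. GPT2 was named after its value was seen. Families picked after their values were seen included 9 of 55 MATE efflux carriers (16.4%), all higher and absent from the pwo1 table. AT2G04050 was at 3.14 and DTX1 at 2.88 per the authors' deposited table. They also included 7 of 27 berberine bridge enzyme-like oxidases (25.9%), 6 higher and 1 lower. Of all protein-coding genes, 6.91% were listed. Of the lower transporters, the amino acid exporter relatives UMAMIT36 and UMAMIT44 were at -2.00 and -0.96 per the authors' deposited table.

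Calcium signalling genes were 38 higher and 8 lower, with a median log2 fold change of 0.77 per the authors' deposited table. Of the 36 absent from the pwo1 table, 32 were higher. The calcium pump gene AT3G22910 was at 3.09, and the calcium pump genes ACA10 and ACA2 at 0.52 and 0.46 per the authors' deposited table. The calmodulin-like gene CML37 was at 1.41 per the authors' deposited table. Outside this group by description, the channel genes CNGC19, CNGC3 and CNGC11 were at 1.53, 1.2 and 0.86 per the authors' deposited table. CNGC3 and CNGC11 were also listed for pwo1, lower there at -0.76 and -1.11 per the authors' deposited tables. CML41 was at 1.91 in crwn1 crwn2 and at -1.08 in pwo1 per the authors' deposited tables. The lower members included IQD11 at -0.63, a calmodulin-binding scaffold gene, per the authors' deposited table. ACA2, ACA10, CNGC19, CML37 and CML41 were named after their values were seen.

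On the senescence list 6 of 14 members were higher, none lower and 8 not listed, among them SAG12, SAG13 and SEN1. Over all protein-coding genes of the reference, 6.91% were listed and 3.92% were higher. The wider group with senescence in the description was mixed, with 13 higher and 8 lower members. With p under 0.001 in both tools it had 6 higher and 5 lower. The authors' deposited table gave 1.47 for NYE2 (AT4G11910) and 0.51 for NYE1, genes of chlorophyll breakdown. The senescence factors WRKY53, ORE1 (NAC6) and WRKY6 were at 1.45, 1.14 and 1.13 per the authors' deposited table. SAG21 was at 1.66 in crwn1 crwn2 and at 1.1 in pwo1 per the authors' deposited tables. WRKY53, WRKY6 and SAG21 are also in the WRKY or late embryogenesis groups, so these counts are not separate evidence. WRKY53 and SAG21 overlap other annotated genes. Ethylene synthesis genes ACS2 and ACS7, named after their values were seen, were at 2.13 and 2.39 per the authors' deposited table.

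Cold acclimation genes that were listed were lower in crwn1 crwn2, with 1 exception. CBF factors bind the DRE core CCGAC and switch on COR genes, whose products protect membranes during freezing. Of 16 list members 7 were lower, 1 higher and 8 not listed, where 2.99% of all protein-coding genes were lower and 3.92% higher. The median log2 fold change of the listed members was -1.27 per the authors' deposited table. The factor gene CBF3 (DREB1A) was at -1.30, and its known targets COR15A, KIN2 and RD29A (LTI78) at -1.99, -1.73 and -1.24 per the authors' deposited table. For CBF3 the authors' tests gave p = 0.0026 by edgeR and p = 0.00615 by Cuffdiff, and CBF1 and CBF2 were not listed. Cuffdiff gave -1.11 for KIN2 per the authors' deposited table. COR15B was at -2.46 in crwn1 crwn2 and at -1.1 in pwo1 per the authors' deposited tables. CBF3 and COR15B overlap other annotated genes. COR413-PM1 and ERD10 were at -0.80 and -0.78, and the zinc finger gene ZAT12 (RHL41) was higher at 1.16 per the authors' deposited table. In the wider description group of cold, dehydrin and late embryogenesis genes, the 11 absent from the pwo1 table were 2 higher and 9 lower. The 11 also listed for pwo1 were 7 higher and 4 lower. The promoters of COR15A and RD29A are shown because their windows hold 2 and 3 matches to the DRE core. They are the 250 bases before the RefSeq gene starts in TAIR10.1, chr2:17712331-17712580 on the minus strand and chr5:21240467-21240716 on the plus strand, with CCGAC or its reverse complement in capitals. The window held 1 match in COR413-PM1 and 0 in COR15B, KIN2, CBF3 and ERD10.
COR15A: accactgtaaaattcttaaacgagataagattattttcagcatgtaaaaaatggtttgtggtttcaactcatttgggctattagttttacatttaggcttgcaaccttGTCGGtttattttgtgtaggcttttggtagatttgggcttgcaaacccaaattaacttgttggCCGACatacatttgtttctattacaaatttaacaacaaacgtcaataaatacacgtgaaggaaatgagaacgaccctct
RD29A: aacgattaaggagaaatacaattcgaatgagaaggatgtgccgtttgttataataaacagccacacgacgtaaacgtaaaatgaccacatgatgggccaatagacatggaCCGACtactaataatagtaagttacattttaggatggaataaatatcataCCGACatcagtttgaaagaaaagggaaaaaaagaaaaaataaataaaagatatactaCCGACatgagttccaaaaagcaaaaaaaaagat

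Genes of abscisic acid, the hormone of drought response, were not on a list and are given singly. The synthesis gene NCED3 was at -1.63 and the degradation gene CYP707A3 at -2.14, while its relative CYP707A2 was at 1.49 per the authors' deposited table. The receptor genes PYL6 and PYL4 were at 2.34 and 0.72 in crwn1 crwn2 and at 1.67 and 0.57 in pwo1 per the authors' deposited tables. NCED3 and CYP707A2 were named after their values were seen.

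Of the few growth genes that were listed, most were lower, and most of those were also lower in pwo1. On the list of expansin, gibberellin, brassinosteroid and PIF genes, 6 of 25 members were lower, 1 higher and 18 not listed. Among all protein-coding genes, 2.99% were lower and 3.92% higher. PIF4, a light- and temperature-regulated growth factor, was at -1.36 in crwn1 crwn2 and at -1.35 in pwo1 per the authors' deposited tables. PRE1, a growth-promoting bHLH gene, was at -1.02 in crwn1 crwn2 and at -1.80 in pwo1 per the authors' deposited tables. The gibberellin repressor gene GAI was at -0.68 and the gibberellin-inactivating oxidase gene GA2OX6 at 0.75 per the authors' deposited table, and neither was listed for pwo1. Auxin response genes were 9 higher and 29 lower, with a median log2 fold change of -0.79 per the authors' deposited table. The 22 of them also listed for pwo1 were 2 higher and 20 lower, and the 16 absent from it 7 higher and 9 lower. SAUR genes, which promote cell elongation and were picked as a family after their values were seen, had 15 of 78 members listed. That is 19.2%, against 6.91% of all protein-coding genes. Of the 15 SAUR genes, 2 were higher and 13 lower, and 12 were also listed for pwo1. SAUR22 was at -2.10 in crwn1 crwn2 and at -1.95 in pwo1 per the authors' deposited tables. The auxin carrier genes LAX1, LAX2 and ABCB19 were at -0.63, -0.61 and -0.61 per the authors' deposited table, were absent from the pwo1 table, and were named after their values were seen.

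Cell wall genes were 16 higher and 42 lower, with a median log2 fold change of -0.60 per the authors' deposited table. Of the 58 genes 42 were absent from the pwo1 table, against 1427 of all 1935 listed genes, and these were 14 higher and 28 lower. The direction depended on size, since at least 2-fold changes were 10 higher and 7 lower. Pectin-modifying enzymes, a family picked after its values were seen, had 22 of 231 members listed (9.52%, against 6.91% of all protein-coding genes), 5 higher and 17 lower. Expansins, which loosen walls and were picked in the same way, had 7 of 33 members listed (21.2%), 1 higher and 6 lower. EXPB3 was at -1.18, EXPA11 at -0.95 and EXPA6 at -0.62 per the authors' deposited table. Among the higher wall genes, the arabinogalactan protein gene AGP5 was at 2.90 and the extensin gene EXT4 at 2.10 per the authors' deposited table. EXT4 was named after its value was seen.

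Cell division and cytoskeleton genes were 8 higher and 18 lower, with a median log2 fold change of -0.58 per the authors' deposited table. SP1L2 and SP1L5, relatives of the microtubule regulator SPIRAL1, were the lowest at -2.43 and -1.95 per the authors' deposited table. SP1L2 overlaps another annotated gene. The beta-tubulin genes TUB5, TUB8 and TUB6 were at -0.74, -0.70 and -0.61, and the microtubule bundling gene MAP65-2 at -0.49 per the authors' deposited table. AT5G62240, described as a cell cycle regulated microtubule-associated protein, was higher at 2.43 per the authors' deposited table and overlaps another annotated gene. TUB6 also overlaps another annotated gene. TUB6, MAP65-2 and AT5G62240 were named after their values were seen.

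Photosynthesis genes were 7 higher and 22 lower, with a median log2 fold change of -0.71 per the authors' deposited table, and 20 of the 29 were also listed for pwo1. At least 2-fold changes were even, with 5 higher and 5 lower. The 20 shared genes were 2 higher and 18 lower, while the 9 absent from the pwo1 table were 5 higher and 4 lower. Photosystem and light-harvesting proteins, a family picked after its values were seen, had 19 of 76 members listed, 2 higher and 17 lower. That is 25.0% of the family, against 6.91% of all protein-coding genes. LHB1B1, a chlorophyll-binding protein gene, was at -1.31 in crwn1 crwn2 and at -1.46 in pwo1 per the authors' deposited tables. PORB, an enzyme of chlorophyll synthesis, was at -1.23 in crwn1 crwn2 and at -1.09 in pwo1 per the authors' deposited tables. Light-harvesting genes have near-identical copies, which makes the values of single members uncertain.

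The chromatin group was small, with 0 higher and 7 lower members and a median log2 fold change of -0.86 per the authors' deposited table. By RefSeq product name, 4 of 181 chromatin genes were listed, 1 higher and 3 lower, which is 2.21% against 6.91% of all protein-coding genes. The linker histone gene HIS1-3 was at -0.74 and the histone H2A gene HTA4 at -1.23, against -1.59 and -1.82 in pwo1, per the authors' deposited tables. JMJD5, a histone demethylase-like gene under clock control, was at -0.70 in crwn1 crwn2 and at 1.08 in pwo1 per the authors' deposited tables. The group also holds NF-YB2, a CCAAT-binding factor with a histone fold, at -0.86 per the authors' deposited table. Of 19 transposon and pseudogene entries 6 were higher and 13 lower. Beside AT5G35935, the non-coding retrotransposon SADHU3-2 was at 3.43, and the gypsy-like AT4G08100 and copia-like AT4G16870 at -1.80 and -1.69 per the authors' deposited table.

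Listed genes were spread over the nuclear chromosomes. Between 6.52% and 7.22% of the protein-coding genes of each chromosome were listed, and between 54.4% and 58.6% of these were higher. Some sat beside each other. Of 1080 higher protein-coding genes, 174 (16.1%) lay next to another higher gene, and 97 of 824 lower genes (11.8%) next to another lower gene. No comparison of these shares with a random order was made. Runs of at least 3 neighbours numbered 8 for higher and 3 for lower genes. The longest, on chromosome 4, was CRK11 to CRK15, with log2 fold changes between 0.84 and 2.71 per the authors' deposited table. Another joined the transporter genes ABCC3, ABCC6 and ABCC7 on chromosome 3, at 1.60, 1.47 and 1.34 per the authors' deposited table. A further run on chromosome 3 held CYP71B23, CYP71B3 and CYP71B24, at 1.73, 1.44 and 1.67 per the authors' deposited table. On chromosome 1 the lectin gene AT1G52000 and the myrosinase-binding protein genes MBP2 and MBP1 were lower, at -1.40, -1.61 and -2.38 per the authors' deposited table. Reads common to neighbouring relatives could contribute to such runs, and this was not tested.

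Motif cores were counted in the 250 bases before the gene start, on both strands. The W-box core TTGAC was found in 59.9% of 543 promoters of genes at least 2-fold higher, in 40.8% of 218 promoters of genes at least 2-fold lower, and in 44.9% of all 27443 windows of protein-coding genes. Among genes absent from the pwo1 table it was in 61.4% of 417 promoters of higher genes. The TGA factor core TGACG, which overlaps TTGAC where both read TTGACG, was in 25.2% of higher, 21.1% of lower and 18.6% of all promoters. In windows of 500 bases this order of higher and lower genes turned, to 37.0% of higher and 38.5% of lower promoters. AATATCT, the core of the evening element of clock-controlled genes, was in 18.8% of lower, 10.5% of higher and 2745 of all 27443 promoters, and in 21.3% of 122 promoters of lower genes absent from the pwo1 table. The DRE core CCGAC was in 15.6% of lower, 10.9% of higher and 3285 of all 27443 promoters, and in 7 of 13 promoters of the lower cold and dehydrin genes. The G-box CACGTG was in 7.73% of higher, 9.63% of lower and 6.49% of all promoters. These shares describe letters in a window, not binding, and no test was made of them.

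**Figure D4:**
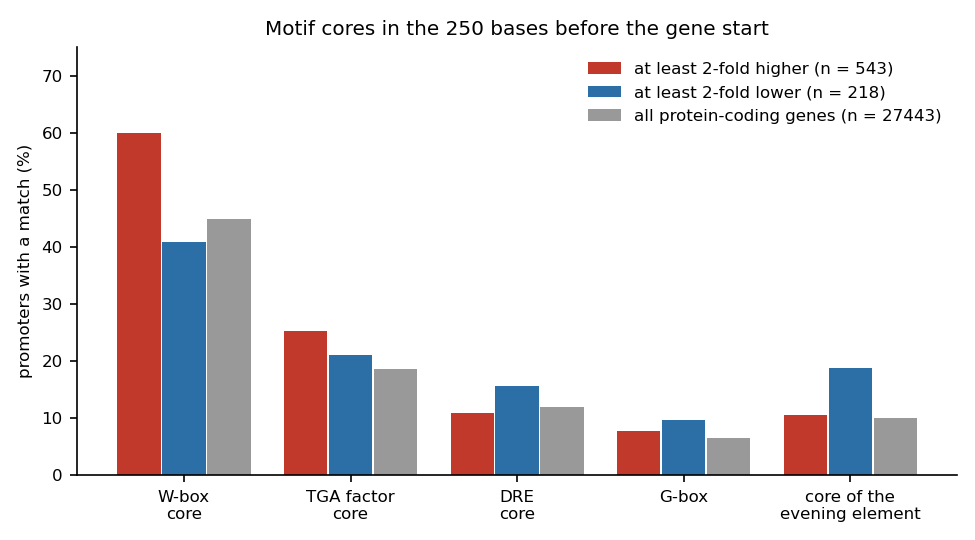
Bars give the percentage of promoters, as the 250 bases before the gene start, with at least 1 match to each motif core on either strand, for listed genes at least 2-fold higher in crwn1 crwn2 (red), at least 2-fold lower (blue) and all protein-coding genes (grey). The W-box core stands at 59.9% for higher genes against 44.9% for all genes, and the evening element core at 18.8% for lower genes against 10.5% for higher genes.

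The markers chosen for single tissues and cell types were not among the listed genes. Of 50 marker genes for root hairs, the stomatal lineage, trichomes, xylem, phloem, shoot and root meristems, pollen and seeds, 0 were listed. Over all protein-coding genes of the reference, 6.91% were listed. The p-values of these markers were not given, so a difference below the authors' threshold was not tested.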

How the data were processed

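The authors deposited 2 tables of their comparisons, for crwn1 crwn2 and for pwo1, each against Col-0, with log2 fold changes and p-values by edgeR and by Cuffdiff, per the file headers. The submitters' processing notes name edgeR 3.3, Cuffdiff 2.2.1, Cufflinks 2, HTSeq 0.6.1, TopHat2 2.0.12, Trimmomatic 0.35, FastQC 0.10 and DiffBind 2 with build TAIR10, without roles or order. The sources used here do not give the normalization, any low-count filter, the listing threshold, pooling or strandedness. The deposited p-values are used as listed and are not adjusted. The design planned a threshold on an adjusted p, which no column holds, so a gene counted as changed when listed. An upper bound of an adjusted p, taken over all 38312 reference genes, was under 0.05 for 1599 of 1935 genes.

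No new test was run, because values per library were not used here. Genes were matched by locus to the RefSeq annotation of TAIR10.1, which held 1933 of the 1935, and 459 of them overlap another annotated gene. Groups came from words in the deposited descriptions, of which 100 were missing, and alternatively from RefSeq product names. Shares of a family count reference genes by product name. Of the list symbols, 13 were assigned to a locus by hand and 3 had no gene. The named genes are the mutated genes. Among genes absent from the pwo1 table, they are the 10 highest, the 10 lowest and the 10 smallest p by the authors' edgeR test in each direction. Per group of at least 5 genes, they are the 4 smallest p in the commoner direction and the 2 smallest in the other, and every listed member of the lists. Other genes were named after their values were seen. The members and lists were chosen with earlier results of these data known. Promoter windows were 250 bases, or 500 as an alternative. Work was done in Python 3.11.15 with pandas 2.3.3, NumPy 2.4.6 and matplotlib 3.10.9.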

Additional observations from a re-analysis of the deposited data

How the results depend on the processing

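No paired analysis was possible because the deposited tables hold comparisons and no values per library. For the same reason no replicate could be left out in turn, and depth limits on single genes are unknown. With a change of at least 2-fold, 552 listed genes were higher and 230 lower. Of genes absent from the pwo1 table, 426 were higher and 130 lower, and of pathway list members 23 and 7. With p under 0.001 in both tools, 480 listed genes, 270 genes absent from the pwo1 table and 9 pathway list members were lower. These counts fall by construction, since each alternative keeps fewer genes. With Cuffdiff's fold changes, 1092 listed genes were higher and 843 lower, and 1 gene changed sign. More genes were higher than lower under each alternative for all listed genes and for those absent from the pwo1 table. The more frequent direction did change in single groups. With p under 0.001 in both tools it turned for ERF/AP2 (8 higher, 6 lower) and was even for bHLH genes (7 each) and proteases (15 each). With at least 2-fold it turned for cell wall genes (10 higher, 7 lower), proteases (12 and 7), MYB genes (3 and 5), genes of unknown function (66 and 36), ERF/AP2 genes (8 and 5), bHLH genes (7 and 6) and protein phosphatases (1 and 2). It was even for photosynthesis (5 each) and B-box genes (2 each), and no gene of the endoplasmic reticulum folding group remained. Without overlapping genes, MYB genes were even (7 each), and by product name protein phosphatases were 2 higher and 5 lower. With windows of 500 bases, chosen after seeing the data, the W-box core was in 76.8% of higher, 62.4% of lower and 67.4% of all promoters. The TGA factor core was then in 37.0% of higher, 38.5% of lower and 32.0% of all promoters.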

Other observations

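Other description groups held members of both directions, where 56.5% of all listed genes were higher. Lipid transfer and GDSL lipase genes were 13 higher and 6 lower, with AT4G12490 at 3.99 per the authors' deposited table, and AZI1, a lipid transfer gene of systemic immunity named after its value was seen, at 2.50. Chitinases, glucanases and other pathogenesis-related proteins were 13 higher and 8 lower, with the chitinase gene CHI at 1.71 and the thaumatin-like gene AT1G75800 at -0.75 per the authors' deposited table. Heat shock and chaperone genes were 18 higher and 13 lower, with the cytosolic chaperone gene Hsp70-2 at 1.18 and RbcX1, a Rubisco assembly chaperone gene, at -0.93 per the authors' deposited table. Ubiquitin ligase genes were 23 higher and 18 lower, with PUB54 at 3.05 and XBAT34 at 2.25 per the authors' deposited table. By RefSeq product name 30 of 1206 were listed (2.49%, against 6.91% of all protein-coding genes). At least 2-fold changes were 8 higher and 0 lower for lipid transfer and GDSL genes. They were 9 and 3 for chitinases and relatives, 6 and 4 for heat shock genes and 9 and 2 for ubiquitin ligases. Among all listed genes with such changes, 70.6% were higher. Protease genes were 23 higher and 27 lower, and genes of unknown function 106 higher and 145 lower. With at least 2-fold changes both turned, to 12 higher and 7 lower proteases and 66 higher and 36 lower genes of unknown function.

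Some listed entries were not protein-coding genes. The microRNA precursor genes MIR408 and MIR398c, whose products target transcripts of copper proteins, were at -1.40 and -1.58 by edgeR and at -4.24 and -4.74 by Cuffdiff per the authors' deposited table. MIR163 was higher, at 1.64 by edgeR per the authors' deposited table. None of the 3 was listed for pwo1. The plastid RNA polymerase subunit genes RPOC1 and RPOC2, which had no match in the reference, were at 0.80 and 1.05 per the authors' deposited table.

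The tools differed in size for a few more genes. SPL3, a factor gene of the juvenile to adult transition, was at -1.22 by edgeR and -5.61 by Cuffdiff, and HEI10, a meiotic crossover gene, at 1.53 and 4.32 per the authors' deposited table. AT4G38540 was the gene whose sign differed, at 0.96 by edgeR and -0.64 by Cuffdiff per the authors' deposited table.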
